A study of Rattus norvegicus with 90 samples.

Results

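The 150 transcripts described here were the most variable transcripts in the livers of rats that received no toxicant. They were selected on the measured values themselves, namely the standard deviation (SD) of log2(CPM + 1) over 9 vehicle livers, where CPM is the estimated count per 1000000 counts on annotated transcripts. Of 40071 transcripts in the tables, 9361 had a mean of at least 5 CPM in those livers, and the 150 with the largest SD were taken. Their spread, their levels in the vehicle livers, and their co-variation there are therefore given as descriptions, without a test.

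The series holds 90 RNA-seq libraries of liver, kidney, and heart from male Sprague-Dawley rats bought at 10 weeks of age and fitted with a catheter before the experiment. Each rat received a single intraperitoneal injection of saline (vehicle, 3 ml/kg) or of thioacetamide at 25 mg/kg (low dose) or 100 mg/kg (high dose), and organs were taken after 8 or 24 h, which gave 5 libraries in each of 18 groups. The paper describes 5 rats per dose and time, with liver, kidney, and heart dissected. The organs of a dose and time therefore come from the same rats. No mutant or transgene was involved. The 8 h rats were injected in the morning and had no food, whereas the 24 h rats were injected in the afternoon and fed until the final fast, so time after exposure, time of injection, and feeding cannot be told apart between the 2 sets. Libraries are named by their label numbers (MS-10 and so on), and no source states that libraries came from pooled animals.

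Thioacetamide is a hepatotoxin that becomes harmful after oxidation in the liver, mainly in the cells around the central vein. Sprague-Dawley rats are an outbred stock, so animals of a group differ in genotype. A gene usually makes several transcripts with shared sequence, and a read that fits more than 1 of them is divided among them by estimation. A transcript can therefore vary between animals while the output of its gene does not. The files do not pair the identifiers with gene symbols or sequences, so transcripts are named by identifier, their function is not given, and the labelled organs could not be checked against marker genes. In bulk tissue, fewer cells of a type and less RNA per cell cannot be told apart.

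Total estimated counts of the 9 vehicle livers ranged from 20516138 to 32444050, and those of all 30 livers from 16641408 to 36303248. The libraries labelled MS-1 (vehicle, 24 h) and MS-9 (low dose, 8 h) held the same counts, with a largest difference of 3 counts for any target. Their own counts do not show which label is right, so both were left out of the main liver comparisons. The effect of keeping them is given beside the results. Fits with MS-1 kept take its vehicle label as right, which was not established. Kidney and heart libraries with matching numbers are set beside this library in the last section. The tables also hold genomic intervals besides the transcripts. These intervals took between 4.08% and 8.76% of the counts in 6 vehicle livers, but 23.6% in MS-16 (8 h), 20.6% in MS-19 (24 h), and 25.0% in MS-21 (24 h).

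The selected transcripts had vehicle SDs from 1.13 to 3.52 on the log2 scale, with a median of 1.38, whereas the median over all 9361 was 0.230. At the limit of the selection, ENSRNOT00000020043 was the last taken with an SD of 1.133, and ENSRNOT00000054910 was the first left out with an SD of 1.114. Most of the spread lay between animals treated alike, since the median member had 88.9% of its sum of squares within times, and only 4 members had under 50% there. The members were shorter than the rest, with a median length of 1647 bases against 2249 for all 9361. Of 150 members, 22 (14.7%) were under 200 bases long, against 0.363% of all, and 8 (5.33%) were over 10000 bases, against 0.929%. The 22 include sets of 8, 7, and 6 transcripts with the same counts, of 49, 153, and 57 bases. They are therefore far fewer separate measurements, and the median length also takes every copy.

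The most variable transcript, ENSRNOT00000026290, ranged over the vehicle livers from 0.000305 CPM in MS-19 to 427 CPM in MS-29. At 8 h its levels were 61.8 (MS-10), 1.14 (MS-13), 142 (MS-16), 0.485 (MS-28), and 427 CPM (MS-29). At 24 h they were 383 (MS-4), 0.000305 (MS-19), 2.47 (MS-20), and 38.8 CPM (MS-21). High and low livers thus occurred at both times. Outside the liver it was low, with 0 to 1.47 CPM in the 10 vehicle kidneys and 0 to 0.149 CPM in the 10 vehicle hearts. Its within-group SD in treated livers was 3.22, and its level ran from 0.359 to 345 CPM among the 5 livers of the low dose at 24 h.

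Such switching between near 0 and a clear level was common among the members. In 74 of them (49.3%), at least 1 vehicle liver was under 1 CPM while another was at 5 CPM or more, a pattern that 0.983% of all 9361 showed. The selection favours this pattern, so the comparison is a description. Of these, 42 members had at least 2 livers on each side, and 28 of the 42 also had at least 2 livers on each side among the 19 treated livers, which the selection did not use. ENSRNOT00000017749, for example, was at 44.6 CPM in MS-10 and 41.7 CPM in MS-13 and below 1 CPM in the other 7 livers. ENSRNOT00000052369, not among the 74, was at 36.8 CPM in MS-29 and 14.8 CPM in MS-20 and between 583 and 1771 CPM in the other 7. The same 2 livers were the lowest for ENSRNOT00000055879, at 0.551 and 0.378 CPM, against 36.4 to 97.5 CPM elsewhere. They were the highest for ENSRNOT00000051252, also not among the 74, at 1100 CPM in MS-29 and 856 CPM in MS-20, against 69.8 to 203 CPM in the others.

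The members also varied in the treated livers. Over the 19 treated libraries, with group means removed, the median SD of log2(CPM + 1) was 1.06 for the members and 0.198 for all 9361 transcripts. All 150 members were above that median of all transcripts, and the lowest was at 0.302. Taken by the treated SD alone, the 150 most variable of the 9361 included 92 members (61.3%). The treated animals are other rats than the vehicle animals, so this is the same measure in libraries that the selection did not use.

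**Figure D1:**
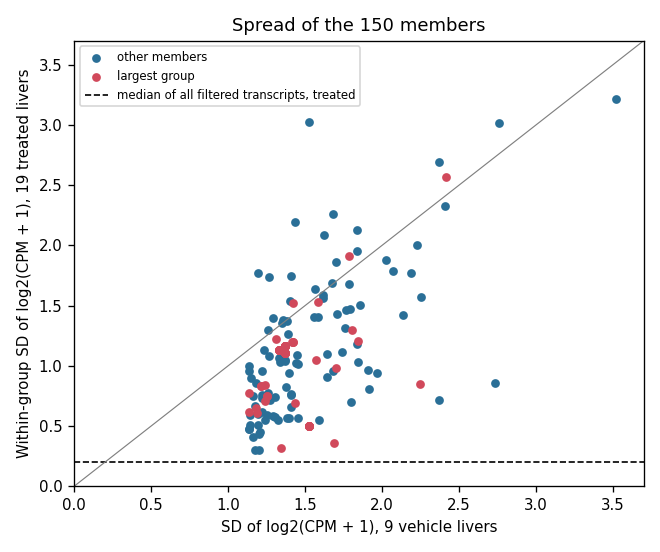
Each point is 1 of the 150 members, with the SD of log2(CPM + 1) over 9 vehicle livers on the horizontal axis and the within-group SD over 19 treated livers on the vertical axis; the grey line marks equality and the dashed line the median treated SD of all 9361 filtered transcripts, 0.198. All members lie above the dashed line, and the members of the largest co-variation group (red) lie among the others (blue).

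The members fell into groups that rose and fell together over the vehicle livers. Average-linkage clustering on 1 minus Pearson's r, cut at 0.5, gave 10 groups of at least 5 members, which held 123 of the 150. The largest held 52 members, the next 14, and the others between 5 and 9. Each liver took part in a different set of groups. MS-16, MS-19, and MS-21 were the 3 highest livers in the group of 52, and MS-16 was the highest in a group of 8 and the lowest in a group of 7. MS-10, MS-13, MS-16, and MS-28, all taken at 8 h, were above their mean in the group of 14, whereas MS-29 at 8 h and the 4 livers at 24 h were below it.

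**Figure D2:**
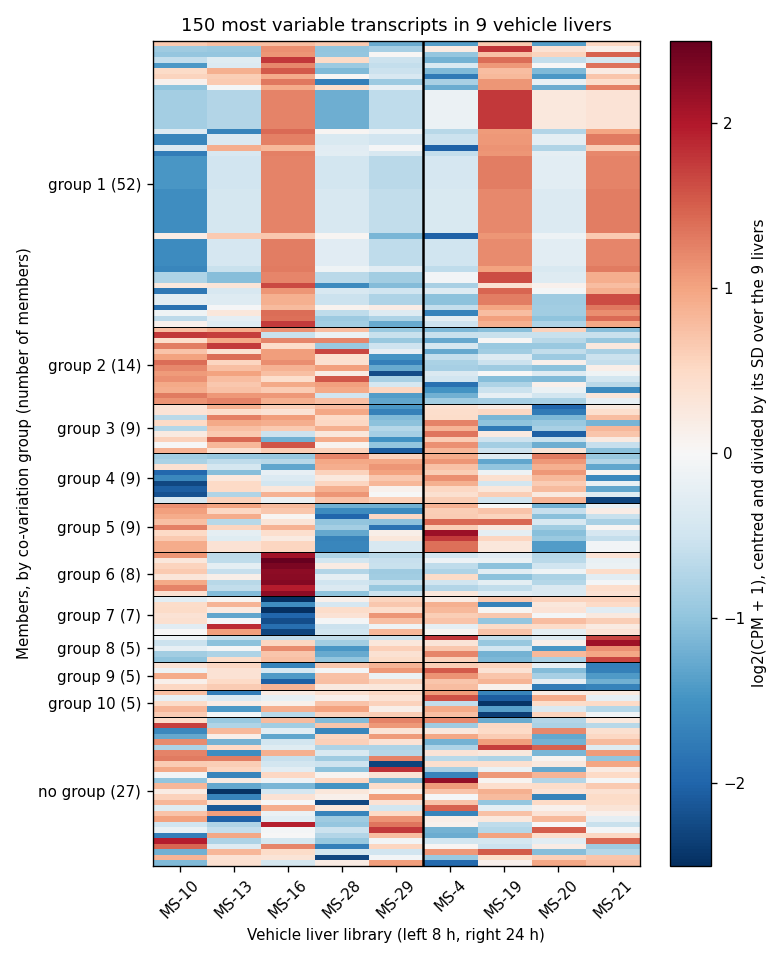
Rows are the 150 members ordered by co-variation group, columns are the 9 vehicle livers (8 h left of the line, 24 h right), and the colour is log2(CPM + 1) centred and divided by the SD of that transcript. Group 1, with 52 members, is high in MS-16, MS-19, and MS-21, and group 6, with 8 members, is high in MS-16.

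Few of these groups held together in the treated livers. With group means removed, the mean r between members was 0.516 in the group of 8 and 0.387 over the 27 distinct profiles of the group of 52, against 0.880 and 0.674 in the vehicle livers. In the other 8 groups it lay between -0.0875 and 0.178, against 0.593 to 0.714 in the vehicle livers. The clusters were formed on the vehicle values, over only 9 libraries, so those values had to be high.

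The group of 52 held the shortest members and those with shared counts. In it, 31 of 52 were under 500 bases. Among all members, 34 belonged to 8 sets whose transcripts had the same length and the same counts within 0.01 count in all 90 libraries, so the 150 members carry 124 distinct profiles. Of these sets, 7 were in the group of 52. They included 8 transcripts of 49 bases, 6 of 57 bases, 7 of 153 bases, and 5 of 411 bases. A quantifier gives equal counts to transcripts that it cannot tell apart, and such a set counts as 1 measurement. ENSRNOT00000073393, of the set of 57 bases, was at 83.4 CPM in MS-16, 86.8 CPM in MS-19, and 82.4 CPM in MS-21. It was at 5.46 to 19.1 CPM in the other 6 vehicle livers. The most abundant member, ENSRNOT00000079005 of 798 bases, was at 17742 CPM in MS-16, 15296 CPM in MS-19, and 16951 CPM in MS-21, and at 954 to 4187 CPM in the others.

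The level of the group of 52 followed the share of counts on genomic intervals. Summed over its members, it was 49006 CPM in MS-16, 43189 CPM in MS-19, and 48698 CPM in MS-21, and 3000 to 11388 CPM in the other 6 vehicle livers. The mean standardized profile of the group had r = 0.972 with the interval share over the 9 vehicle livers. Its mean log2(CPM + 1) had r = 0.955 with that share over the 19 treated livers, which the selection did not use. The same held in organs that the selection did not use, though from the same rats, with r = 0.947 over 30 kidneys and r = 0.935 over 30 hearts. Both quantities come from the same counts of the same library, so these values are descriptions. Among all 9361 transcripts, 53 (0.566%) had r above 0.9 with the interval share over the vehicle livers, and 27 of these were members. Both counts take every copy of an equal-count set. The members were chosen for their spread over these same livers, MS-16, MS-19, and MS-21 included, so the selection favours such transcripts. What the intervals hold, and their part in the level of the group, was not tested.

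**Figure D3:**
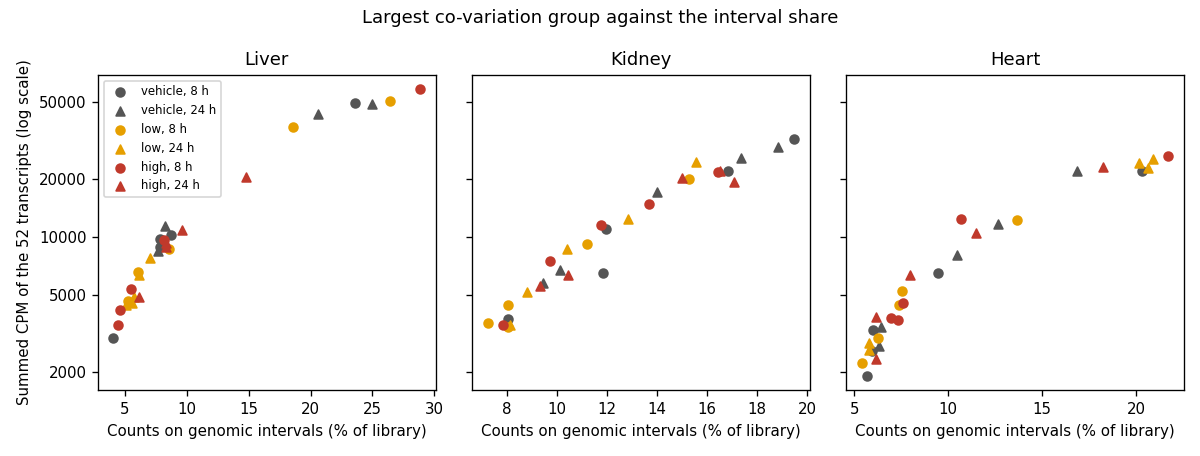
Each point is 1 library of liver, kidney, or heart, with the share of its counts on genomic intervals on the horizontal axis and the summed CPM of the group of 52 on a log vertical axis; colours mark the dose and shapes the time. In each organ libraries of every dose lie along the same rising course, and in liver MS-16, MS-19, and MS-21 reach 49006, 43189, and 48698 CPM. MS-1 is left out, and MS-9, which holds the same counts, is shown under its label of low dose, 8 h.

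The group of 8 stood out in a single vehicle animal. ENSRNOT00000078692 was at 801 CPM in MS-16 and 123 CPM in MS-10, and at 2.67 to 27.6 CPM in the other 7 vehicle livers. ENSRNOT00000018776 was at 564 CPM in MS-16 and at 1.85 to 12.7 CPM in the other 8. ENSRNOT00000042643 was at 349 CPM in MS-16, 116 CPM in MS-10, and 30.2 to 52.5 CPM elsewhere. In the group of 7, the same liver was the low one, with ENSRNOT00000081240 at 0 CPM in MS-16 and 17.2 to 58.9 CPM in the others.

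Several pairs of members moved in opposite directions while their sum stayed steadier. Among 7626 pairs of distinct profiles, 24 had r under -0.8 over the vehicle livers and a summed level whose SD was less than 50% of the smaller single SD. Over 9 libraries and so many pairs, such cases also arise without any relation, so the treated livers are given beside them. ENSRNOT00000090673 and ENSRNOT00000064594 had r = -0.974 in the vehicle livers. The first was at 0.00512 CPM in MS-10 and 1.07 CPM in MS-21, where the second was at 30.0 and 18 CPM, and the second was at 1.42 to 4.19 CPM in the other 7. In the treated livers their r was 0.233. ENSRNOT00000008752 and ENSRNOT00000049832, by contrast, had r = -0.925 in the vehicle livers and -0.674 in the treated livers. The first was at 0.000273 CPM in MS-16, where the second was at 22.4 CPM, and at 17.7 CPM in MS-29, where the second was at 1.21 CPM.

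Many members were also present in the other organs. In the 10 vehicle kidneys, 111 members (74%) had a mean of at least 5 CPM and 19 (12.7%) were under 1 CPM, against 93.1% and 3.45% of all 9361. In the 10 vehicle hearts, 81 members (54%) were at 5 CPM or more and 40 (26.7%) under 1 CPM, against 85.04% and 7.79% of all. In both organs 71 were at 5 CPM or more, and 15 were under 1 CPM in both. The members therefore included a larger share of transcripts low in kidney and heart than the filtered transcripts as a whole. Some were far more abundant outside the liver, and 30 members had a mean in kidney, and 16 a mean in heart, above the highest vehicle liver. ENSRNOT00000051252 had a mean of 4693 CPM in the vehicle kidneys, with a range of 4024 to 5752 CPM, and 1.67 CPM in the hearts. ENSRNOT00000005311 had a mean of 587 CPM in the vehicle hearts, with a range of 292 to 815 CPM, against 5.49 to 114 CPM in the vehicle livers.

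Where they were present, the members also varied among vehicle kidneys and hearts. The median within-time SD was 1.18 for the 111 members at 5 CPM or more in kidney, against 0.229 for the 8715 filtered transcripts at that level. In heart it was 0.914 for 81 members, against 0.125 for 7961 transcripts. The kidneys and hearts played no part in the selection, but they are organs of the same vehicle rats and not of other animals. The labels do not say which library came from which rat.

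For a few switching transcripts the state of a liver was the same in the kidney and heart libraries with the matching number. A kidney library number minus 30, or a heart library number minus 60, gave a liver library of the same dose and time in 20 and 25 cases. The labels do not say that such libraries share a rat. ENSRNOT00000042736 was under 1 CPM or at 5 CPM or more in both libraries in 19 of 20 matching kidney pairs and 23 of 24 matching heart pairs, where pairs with a value between the 2 limits are left out. Among other pairs of the same dose and time it was alike in 70 of 120 and 65 of 112. ENSRNOT00000086293 was alike in 18 of 19 matching kidney pairs and 19 of 20 matching heart pairs, against 54 of 112 and 41 of 92 other pairs. ENSRNOT00000043736 was alike in 17 of 17 and 21 of 21, against 53.4% and 51% of other pairs. ENSRNOT00000057587 was alike in 19 of 19 and 22 of 22, against 87 of 116 and 74 of 100. These 4 were singled out after their values had been seen. Over all 42 switching members the agreement was 71.6% (459 of 641 values) in matching kidney pairs and 60.9% (2339 of 3843) in other pairs, and 61.5% (494 of 803) and 57.4% (2116 of 3688) for heart. The excess over other pairs was thus smaller over the whole list than in these 4.

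**Figure D4:**
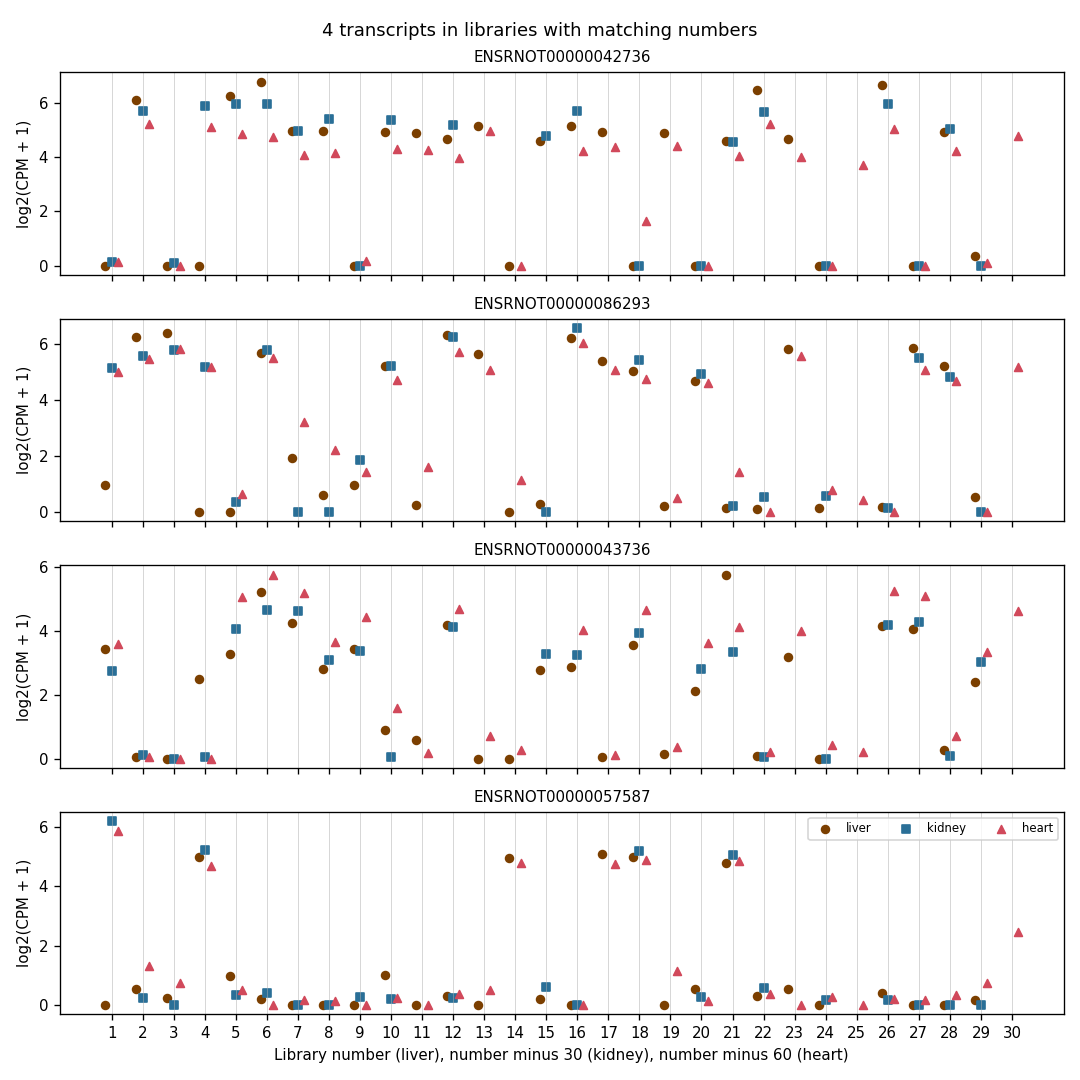
Each panel shows the log2(CPM + 1) of 1 transcript against the library number in liver (circles), the number minus 30 in kidney (squares), and the number minus 60 in heart (triangles), all 3 doses and both times included. At most numbers the organs are all near 0 or all raised, and liver MS-4 is at 0 for ENSRNOT00000042736 and ENSRNOT00000086293 where its kidney and heart counterparts are raised. The liver points of MS-1 and MS-9 hold the same counts, shown at both numbers.

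Liver MS-4 was the exception in 3 of the 4. It was at 0 CPM for ENSRNOT00000042736, against 58.6 CPM in kidney MS-34 and 33.5 CPM in heart MS-64. It was at 0 CPM for ENSRNOT00000086293, against 35.4 and 35.3 CPM, and at 4.6 CPM for ENSRNOT00000043736, against 0.0433 and 0 CPM. For ENSRNOT00000057587 it was at 30.6 CPM, against 36.2 and 24.9 CPM. Without MS-4, 134 of the 150 members were selected again.

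The members were then followed through the dose comparisons in liver. Each dose was set against the vehicle livers of its own time, over all transcripts that passed the filter on low counts. A transcript was called when its adjusted p was at most 0.01 and its fold change, up or down, was at least 1.82 (0.6 on the natural log scale). The vehicle livers of these tests are those that chose the members, and both dose comparisons of a time share them. A wide spread among these vehicle livers makes a call less likely, so a low count says little about the response. At 8 h the low dose called 2 of 149 members tested (1.34%), both lower, against a background of 7.5% of all 16624 transcripts tested. The high dose called 4 of 147 (2.72%), 1 higher and 3 lower, against 20.2% of 16468. Both shares were below the background, while the median absolute log2 change of the members was 0.554 at the low dose and 0.444 at the high dose, against 0.408 and 0.536 over all transcripts. The 4 called at the high dose became 2 without MS-13, MS-14, or MS-17. The 2 called at the low dose became 0 without MS-18 or MS-94 and 1 without MS-10, MS-13, MS-28, MS-12, or MS-15.

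At 24 h the low dose called 41 of 147 members (27.9%), against 9.04% of all 16754 transcripts. Of these, 37 were lower, against a background of 4.15% called lower, and 4 were higher, against 4.89%. The high dose called 37 of 145 members (25.5%), against 26.8% of 17137, with 30 lower, against a background of 13.6%, and 7 higher, against 13.2%. These counts take every copy of an equal-count set. With each set taken once, 17 of 121 distinct profiles (14%) were called at the low dose, 13 lower and 4 higher, and 21 of 119 (17.6%) at the high dose, 14 lower and 7 higher. The group of 52 gave 34 of the 37 falls at the low dose, or 10 of 13 distinct ones. At the high dose it gave 23 of 30, or 7 of 14 distinct ones. Its median log2 fold change was -2.84 at the low dose and -2.21 at the high dose, against 0.0173 and 0.0365 over all transcripts. In the other members it was 0.0966 and -0.0760.

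The falls of the group of 52 moved with the interval share. Its summed level was 8447 CPM in MS-4, 11388 CPM in MS-20, 43189 CPM in MS-19, and 48698 CPM in MS-21 among the vehicle livers at 24 h. At the low dose it was 4449 to 7796 CPM, below all 4 vehicle livers. At the high dose it was 4928 to 20444 CPM, which overlaps them. The interval share was 7.64% to 25.0% in these vehicle livers, 5.10% to 7.02% at the low dose, and 6.17% to 14.8% at the high dose. At 8 h, when high-share libraries were present at each dose, the summed level was 3000 to 49006 CPM with vehicle, 6575 to 50567 CPM at the low dose, and 3519 to 57952 CPM at the high dose, and no member of the group was called. With the interval share as a covariate, 8 of the 34 falls at the low dose and 11 of the 23 at the high dose were still called. At the low dose every share lay below that of every vehicle liver used, so that fit cannot separate the dose from the share. The part of the share in the falls was not tested. With only libraries under 15% interval share, which leaves MS-4 and MS-20 as vehicle livers, 19 of the 34 and 8 of the 23 were still called. With MS-1 kept among the vehicle livers, at 4647 CPM and an interval share of 5.23%, none of the 57 remained. The count of called members also fell to 27 at the low dose without MS-7. At the high dose it fell to 22 without MS-19 or MS-26, 23 without MS-6 or MS-24, and 24 without MS-21. Without MS-4 the count rose to 43 at the low dose and 51 at the high dose.

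Outside the group of 52, 16 of 98 members (16.3%) were called against vehicle in at least 1 of the 4 liver comparisons, against 35.1% of the 17704 transcripts tested in any of them. ENSRNOT00000018776 and ENSRNOT00000078692, the same transcripts that were high in vehicle liver MS-16, rose most at the high dose. At 24 h the vehicle levels of ENSRNOT00000018776 were 1.85, 5.46, 5.65, and 6.02 CPM. They were 7.99, 12.01, 12.2, 12.8, and 21.5 CPM at the low dose and 69.9, 126, 157, 180, and 400 CPM at the high dose. The 3 groups did not overlap, and the log2 fold change of the high dose was 4.47 ± 0.56 (SE, n = 5 and 4, adjusted p = 0.000119 in edgeR). MS-1, left out here, was at 41.3 CPM, above every low-dose liver, and with it kept the log2 fold change was 3.45 and the call held. The high dose also exceeded the low dose, by 3.52 ± 0.46 on the log2 scale (edgeR, adjusted p = 0.00109). At 8 h the high dose gave 33.4 to 151 CPM, against 2.06 to 12.7 CPM in 4 vehicle livers and 564 CPM in MS-16, and the test did not call it (edgeR, adjusted p = 0.761).

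ENSRNOT00000078692 followed the same course. At 24 h it was at 2.88, 5.27, 7.87, and 27.6 CPM with vehicle, 26.1 to 53.4 CPM at the low dose, and 174, 355, 411, 542, and 587 CPM at the high dose. The high dose lay above every vehicle and low-dose liver, by 4.42 ± 0.70 over vehicle (edgeR, adjusted p = 0.000491) and by 3.08 ± 0.35 over the low dose (edgeR, adjusted p = 0.00085). With MS-1 kept, the log2 fold change over vehicle was 3.01 and the call was lost. At 8 h it was at 116 to 624 CPM at the high dose, within the vehicle range of 2.67 to 801 CPM. In all, 4 of the 8 members of their group were called higher at the high dose at 24 h, against 13.2% of all transcripts. At 8 h MS-16 lay at or above the level of the high-dose livers for both transcripts, which were chosen for their spread over livers that include it. ENSRNOT00000013116, of the same group, was at 37.4 CPM in MS-16, against a mean of 8.56 CPM in the high-dose livers at 8 h. For ENSRNOT00000060335 and ENSRNOT00000085203, MS-16 lay with the vehicle livers, at 18.1 and 29.8 CPM, where the high-dose livers reached 7.90 and 8.03 CPM. Why MS-16 differed was not tested.

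ENSRNOT00000040056 was called higher in 3 of the 4 comparisons with vehicle. At 24 h it was at 1.85, 3.46, 3.78, and 4.91 CPM with vehicle, 13.4 to 50.7 CPM at the low dose, and 21.8 to 35.1 CPM at the high dose, without overlap of vehicle and either dose. The log2 fold changes were 2.57 ± 0.47 (edgeR, adjusted p = 0.00296) and 2.09 ± 0.28 (edgeR, adjusted p = 0.000178). At 8 h it was at 8.12 to 72.8 CPM with vehicle and 94 to 168 CPM at the high dose, 1.96 ± 0.49 higher (edgeR, adjusted p = 0.0071). That call was lost without any 1 of MS-10, MS-13, MS-16, MS-11, MS-14, MS-17, or MS-27, with log2 fold changes from 1.76 to 1.99. The low-dose call at 24 h was lost with MS-1 kept, where the log2 fold change was 0.763, and without MS-19 or MS-21, where it was 2.55 and 2.58.

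ENSRNOT00000015801 was called higher at both doses at 24 h and was not called at 8 h. A difference between the times was called for the high dose only, with the limits given below. At 24 h it was at 7.50, 8.23, 14.7, and 16.3 CPM with vehicle, 40.9 to 165 CPM at the low dose, and 36.7 to 282 CPM at the high dose. Both doses lay above every vehicle liver, with log2 fold changes of 2.48 ± 0.40 (edgeR, adjusted p = 0.00149) and 3.15 ± 0.60 (edgeR, adjusted p = 0.00144). At 8 h it was at 5.24 to 96.1 CPM with vehicle and 1.92 to 26.6 CPM at the high dose. The low-dose call was lost with MS-1 kept, where the log2 fold change was 2.10.

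Of the members that fell, ENSRNOT00000015316 was called in all 4 comparisons. At 24 h it was at 12.6, 61.5, 65.9, and 103.2 CPM with vehicle, 0.445, 0.908, 1.20, 1.45, and 1.91 CPM at the low dose, and 1.08 to 11.8 CPM at the high dose. Both doses lay below every vehicle liver. The log2 fold changes were -6.21 ± 0.62 (edgeR, adjusted p = 0.000152) and -4.62 ± 0.68 (edgeR, adjusted p = 0.000322), and both calls were kept with MS-1 included and with the interval share as a covariate. At the low dose at 24 h it was the only call among the members with MS-1 included. At 8 h it was at 7.95 to 100 CPM with vehicle, 2.82 to 8.80 CPM at the low dose, and 2.08 to 13.7 CPM at the high dose, and the groups overlapped. Its call at 8 h was lost at both doses with only libraries under 15% interval share, at the low dose with MS-9 kept, with the interval share as a covariate, or without MS-13, MS-29, MS-12, MS-15, MS-18, or MS-94, and at the high dose without MS-13, MS-29, MS-8, MS-14, MS-17, or MS-27.

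ENSRNOT00000085203 fell at the high dose at both times and at the low dose at 24 h. At 8 h it was at 17.2, 29.8, 50.7, 58.8, and 98.8 CPM with vehicle, and at 4 to 8.03 CPM at the high dose, 3 of whose livers lay between 4.59 and 5.70 CPM. At 24 h it was at 8.39, 46.7, 79, and 93.04 CPM with vehicle and 3.07 to 4.83 CPM at the high dose. The log2 fold changes were -3.40 ± 0.44 (edgeR, adjusted p = 0.000109) and -4.64 ± 0.59 (edgeR, adjusted p = 0.000131). At the low dose at 24 h it was at 3.22 to 9.54 CPM, which overlaps the vehicle livers (-3.88 ± 0.65, edgeR, adjusted p = 0.00192), and that call was lost with MS-1 kept, with the interval share as a covariate, and with only libraries under 15% interval share. ENSRNOT00000060335 fell at 8 h, from 16.5 to 23.7 CPM with vehicle to 3.11 to 11.9 CPM at the low dose (-1.77 ± 0.34, edgeR, adjusted p = 0.00408) and 2.44 to 7.90 CPM at the high dose (-2.28 ± 0.28, edgeR, adjusted p = 8.73e-05). The low-dose call was lost without MS-10, MS-28, MS-18, or MS-94, with log2 fold changes from -1.86 to -1.68. At 24 h ENSRNOT00000060335 was not called at either dose, with log2 fold changes of -0.333 (low) and -0.747 (high). Its spread over the vehicle livers lay mainly between times, with 19.975% of its sum of squares within times. Its lowest vehicle liver, at 2.04 CPM, was taken at 24 h and lay below every treated liver used at 8 h. A level as low as that of the treated livers at 8 h thus also occurred without toxicant.

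**Figure D5:**
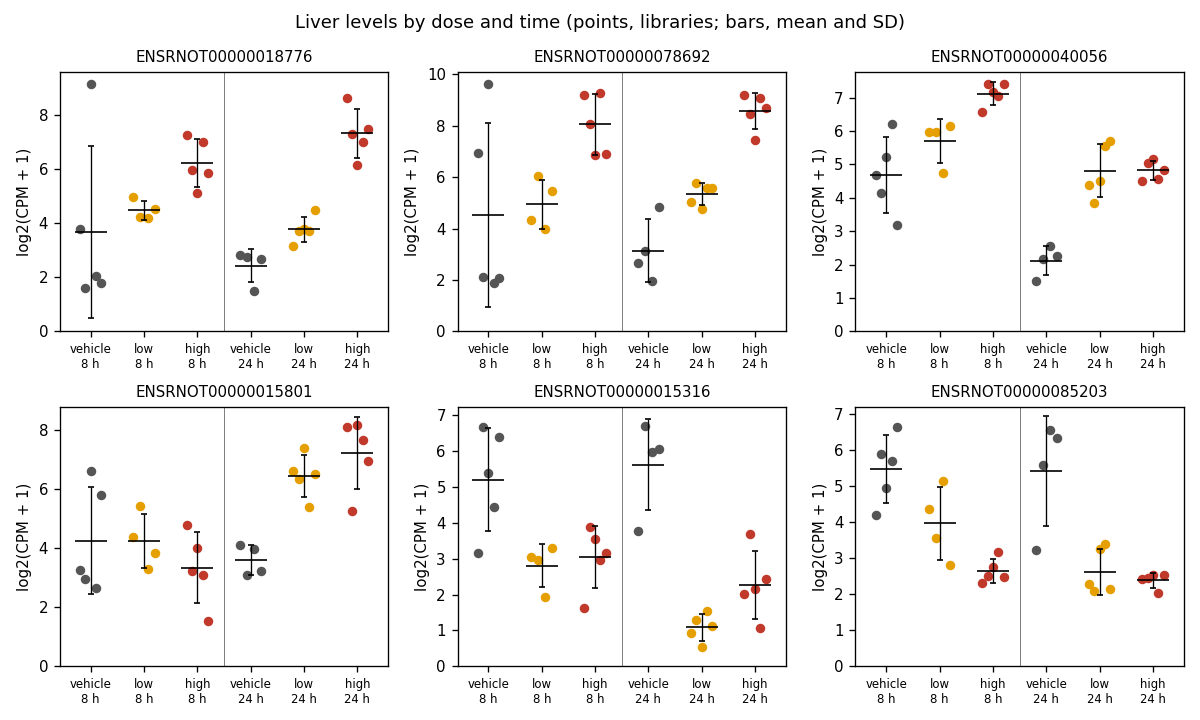
Points are the log2(CPM + 1) of 6 members in single liver libraries by dose and time, with MS-1 and MS-9 left out; horizontal bars are group means and error bars the SD (n = 4 or 5). ENSRNOT00000018776 and ENSRNOT00000078692 show 1 vehicle liver at 8 h, MS-16 at 564 and 801 CPM, at or above the high-dose livers, and ENSRNOT00000015316 shows low-dose livers at 24 h below all vehicle livers.

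Between the 2 doses, 2 of 148 members were called at 8 h (1.35%), both higher at the high dose, against 2.29% of all 17220 transcripts. These were ENSRNOT00000040056 and ENSRNOT00000013116, the latter at 3.15 to 3.99 CPM at the low dose and 6.66 to 10.5 CPM at the high dose (log2 difference 1.41 ± 0.18, edgeR, adjusted p = 0.00161). The number was 1 without MS-12, MS-15, MS-94, MS-11, MS-17, or MS-27. At 24 h, 8 of 144 were called (5.56%), 4 in each direction, against 6.6% of 17101, and 5 were called without MS-7 or MS-26. Besides the 2 transcripts of the MS-16 group, they included ENSRNOT00000011948. It was at 7.22 to 13.3 CPM with vehicle, 36.3 to 91.2 CPM at the low dose, and 14.5 to 27.3 CPM at the high dose at 24 h, and the log2 difference of the high from the low dose was -1.68 ± 0.29 (edgeR, adjusted p = 0.00258).

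The difference between the 24 h effect and the 8 h effect was tested as an interaction, at an adjusted p of at most 0.01 without a fold limit. For the low dose, 0 of 150 members were called by edgeR, against 0.628% of 17835 transcripts, while DESeq2 called 2. At an unadjusted p under 0.05 edgeR gave 45 members, or 26 of 124 distinct profiles, against 20% of all transcripts. Without MS-16, edgeR called 2 as well. For the high dose, 3 of 150 were called (2%), against 10.2% of 18398, and without vehicle liver MS-16 the number was 10. ENSRNOT00000066282 was at 6.84 to 95.6 CPM with vehicle and 15.6 to 261 CPM at the high dose at 8 h. At 24 h it was at 61.1, 63.4, 77.7, and 123 CPM with vehicle and 3.38 to 13.6 CPM at the high dose. The log2 effect at 24 h differed from that at 8 h by -5.41 ± 1.08 (edgeR, adjusted p = 0.00185). For ENSRNOT00000015801 the effect was higher at 24 h by 4.93 ± 1.20 on the log2 scale (edgeR, adjusted p = 0.00712). That call was lost with MS-1 kept, at 4.52, and when 1 library was left out, at 4.11 to 5.12, except in the fits without MS-10, MS-13, MS-28, MS-8, MS-6, or MS-26.

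The third, ENSRNOT00000057587, was a switching transcript. It was at 30.0 CPM in MS-14 and 32.8 CPM in MS-17 among the 5 high-dose livers at 8 h, at 30.6 CPM in MS-4 and 26.2 CPM in MS-21 among the vehicle livers at 24 h, and at 1.01 CPM or less in the other vehicle and high-dose livers. The hearts with matching numbers were also raised, at 26.4 CPM in MS-74, 25.7 CPM in MS-77, 24.9 CPM in MS-64, and 27.7 CPM in MS-81. The raised livers of the groups compared were thus 4, and 2 of these carry the vehicle label.

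In the kidney few members were called, at shares no lower than those of all transcripts. The low dose called 1 of 129 members at 8 h (0.775%), against 0.218% of all 18829 transcripts, and 1 of 132 at 24 h (0.758%), against 0.0593% of 18559. The high dose called 2 of 128 at 8 h (1.56%), against 1.49% of 18597, and 6 of 130 at 24 h (4.62%), 4 higher and 2 lower, against 4.19% of 18967. The single call at the low dose was ENSRNOT00000017174 at both times, and it was also called at the high dose. Its kidney levels at 24 h were 12.3, 13.2, 15.5, 18.2, and 20.7 CPM with vehicle, 51.1 to 101.8 CPM at the low dose, and 41.6 to 77 CPM at the high dose, without overlap. The log2 fold changes at 24 h were 2.09 ± 0.20 (edgeR, adjusted p = 0.00338) and 1.65 ± 0.22 (edgeR, adjusted p = 0.000566). At 8 h they were 1.48 ± 0.21 at the low dose (edgeR, adjusted p = 0.00806) and 0.99 ± 0.18 at the high dose (edgeR, adjusted p = 0.00926). The number of members called at the low dose was 0 in every fit that left out 1 library, except those without MS-100 or MS-48 at 8 h and without MS-31 or MS-105 at 24 h. At the high dose at 8 h it was 0 or 1 in those fits, and 8 without vehicle kidney MS-100.

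ENSRNOT00000044591 fell in both organs. In the kidneys at 24 h it was at 213, 219, 259, 262, and 371 CPM with vehicle, 33.1 to 152 CPM at the low dose, and 13.4 to 42.1 CPM at the high dose. The fall at the high dose was -3.45 ± 0.35 on the log2 scale (edgeR, adjusted p = 0.000113), and in the livers at 24 h it was -5.35 ± 1.003 (edgeR, adjusted p = 0.00137). In liver the groups overlapped, with 0.755 to 4.75 CPM at the high dose against 3.92 CPM in MS-19, 9.43 CPM in MS-21, 114 CPM in MS-20, and 119 CPM in MS-4. In the vehicle livers the transcript was at 97.9 to 119 CPM in MS-28, MS-29, MS-4, and MS-20 and at 3.92 to 10.7 CPM in the other 5. ENSRNOT00000055879, which was near 0 in vehicle livers MS-29 and MS-20, also fell in the kidney, from 5.19 to 17.8 CPM with vehicle to 1.56 to 3.35 CPM at the high dose at 24 h (-2.18 ± 0.37, edgeR, adjusted p = 0.0028).

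In the heart the low dose called 0 of 112 members at 8 h and 0 of 117 at 24 h, against a background of 0% at both times. The high dose called 0 of 110 at 8 h, against 0.0171% of 17519 transcripts. At an unadjusted p under 0.05, edgeR gave 12, 7, and 9 members in these 3 comparisons, against 3.93%, 9.17%, and 9.69% of all transcripts, and DESeq2 called 1, 1, and 0 by the main criteria. The high dose at 24 h called 1 of 116 (0.862%), against 0.922% of 17574. This was ENSRNOT00000000995, at 0.208 to 1.19 CPM with vehicle, 1.44 to 3.34 CPM at the low dose, and 3.20 to 5.38 CPM at the high dose, 2.76 ± 0.38 higher (edgeR, adjusted p = 0.002). Without vehicle heart MS-80 the number called was 3, and without MS-84 it was 2. At 8 h it was 1 without MS-76 at the low dose and 1 without MS-73 at the high dose. In the vehicle livers this transcript was at 0.217 CPM in MS-16 and 0.164 CPM in MS-21, and at 6.55 to 26.7 CPM in the other 7.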

How the data were processed

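Poly-A-enriched libraries were sequenced as 75-bp pairs. Per the labels and the study's methods, the authors quantified reads with kallisto 0.42.2 against the Rnor_6.0 transcriptome and deposited estimated counts, which need not be whole and are not normalized, together with TPM and target lengths. TPM served only as an alternative here. Estimates for transcripts with shared sequence depend on each other, and this can move counts between them. Transcript counts were scaled to CPM without genomic intervals; shares of counts on intervals used all targets. Comparisons used rounded counts in edgeR 4.0.16 (R 4.3.3, default filter, TMM, quasi-likelihood test, Benjamini-Hochberg adjustment over all transcripts tested), and DESeq2 1.42.0 was an alternative. Both were tried on simulated counts, scored at a less strict adjusted p than that used here. The simulation held no transcripts that switch between animals, so it does not cover many of the members. Its criterion on false calls was limited to edgeR after DESeq2 had exceeded it. Values after ± are approximate SEs, the absolute log2 fold change divided by the square root of the edgeR F statistic. Totals limit precision as given above, and p-values measure spread between animals, given that 5 rats per group are stated. Named transcripts were the 10 with the largest SD, those nearest the limit, leaders of co-variation groups, called members without overlap, the most abundant in kidney and heart, and switching or opposed members. At most 2 per direction and comparison are printed because no names pair with the identifiers, and symbol lists and marker lists could therefore not be applied. The members and lists were chosen with earlier results of these data known. Alternatives were other scalings, filters, pseudocounts, tools, and left-out libraries. The uses of the interval share, and counting equal transcripts once, were chosen after seeing the data.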

Additional observations from a re-analysis of the deposited data

Results flagged for a closer look

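Within liver groups of 4 or 5 libraries, the values of the named transcripts and of the group of 52 were screened for a library far from the others. With equal-count partners taken once, such a library was found in 15 of 96 groups. Of these, 9 were among the 32 vehicle groups, whose spread chose the members, so they are not set against a chance rate. The other 6 were among the 64 treated groups. The limits give about 1 in 20 by chance for normally distributed values. The CPM of these transcripts are often skewed and the same libraries recur, so the 6 are not set against that rate either. Of the 15, 5 were MS-16 among the vehicle livers at 8 h. It was at 564 CPM for ENSRNOT00000018776, 801 CPM for ENSRNOT00000078692, 37.4 CPM for ENSRNOT00000013116 (others 1.82 to 6.56 CPM), and 49006 CPM for the sum of the group of 52, and at 42.2 CPM for ENSRNOT00000089050 and its equal-count partner ENSRNOT00000085643 (others 2.20 to 4.97 CPM), which count as 1 measurement. For that pair MS-19 was at 74.8 CPM among vehicle livers at 24 h (others 8.98 to 15.7 CPM), and MS-14 at 10.85 CPM among high-dose livers at 8 h. MS-14 was also far above its group at 57952 CPM for the sum of the group of 52 and at 35.2 CPM for ENSRNOT00000091923. That transcript was at 77.9 CPM in MS-20 among vehicle livers at 24 h (others 17.9 to 26.2 CPM) and at 6.05 CPM in MS-91 at the high dose at 24 h, where the other 4 were below 0.03 CPM. MS-20 was low for ENSRNOT00000018776, at 1.85 CPM, and MS-91 was low for ENSRNOT00000085203, at 3.07 CPM. For ENSRNOT00000057587, MS-10 was at 1.01 CPM among vehicle livers at 8 h and MS-18 at 30.7 CPM among low-dose livers at 8 h, where the others were at 0.240 CPM or less.

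The effect of the high dose differed between 24 and 8 h in an interaction test for ENSRNOT00000066282, by -5.41, and for ENSRNOT00000015801, by 4.93 on the log2 scale. For ENSRNOT00000057587 the fitted difference was -12.63, which depends on the prior count because whole groups are near 0, and is no measure of size.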

How the results depend on the processing

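With MS-1 kept among the vehicle livers, 1 member was called at the low dose and 10 at the high dose at 24 h. With MS-9 kept, 1 was called at the low dose at 8 h. With the interval share as a covariate, an alternative chosen after seeing the data, the liver comparisons of the low dose called 1 at 8 h and 15 at 24 h, and high against low dose 1 at 8 h. With only libraries under 15% interval share, also chosen afterwards, they called 0, 27, and 1. At 24 h the shares of the low-dose livers and the vehicle livers used did not overlap, so neither setting separates that dose from the share. DESeq2, which called more unchanged transcripts on simulated data than its adjusted p allows, called more members than edgeR. In liver it called 5 at the low dose at 8 h, 9 and 16 between doses at 8 and 24 h, and 2 in the low-dose interaction. In kidney it called 2, 4, and 5 at the low dose at 8 and 24 h and the high dose at 8 h, and in heart 1, 1, and 4 at the low dose at both times and the high dose at 24 h. The kidney count at the high dose at 8 h was 1 with RLE factors and 0 without the count filter. The cause was not tested.

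Leaving out 1 library at a time gave 0 to 3 and 27 to 43 liver members at the low dose at 8 and 24 h, 2 to 6 and 22 to 51 at the high dose, 1 to 2 and 5 to 8 between doses, and 0 to 2 and 2 to 10 in the low- and high-dose interactions. It gave 0 to 1 at both times at the low dose and 0 to 8 and 4 to 8 at the high dose in kidney. In heart it gave 0 to 1, 0 to 0, 0 to 1, and 1 to 3 in the same order.

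Of the 150 members, 127 to 141 were selected again when 1 vehicle liver was left out, 60 when the mean had to be 20 CPM or more, and 82 without MS-16, MS-19, and MS-21, an alternative chosen afterwards, in which 7 of the group of 52 remained. The 7 other planned ways of selecting them shared 113 to 148. Fold changes of the named transcripts kept their direction in all 453 alternative values, and 74 of these no longer met the criteria. No paired analysis was possible because each library number occurs once, so the groups share no replicate number.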

Other observations

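The library deposited as both MS-1 and MS-9 can be set beside the kidney and heart libraries with matching numbers for the 4 transcripts whose state matched elsewhere. For ENSRNOT00000057587 it was at 0 CPM, kidney MS-39 at 0.206 CPM, and heart MS-69 at 0 CPM, whereas kidney MS-31 was at 72 CPM and heart MS-61 at 57.5 CPM. For ENSRNOT00000086293 it was at 0.969 CPM, against 2.67 CPM in MS-39 and 1.68 CPM in MS-69, and 34.1 CPM in MS-31 and 30.9 CPM in MS-61. For both transcripts the library was nearer to MS-39 and MS-69, which match MS-9, than to MS-31 and MS-61, which match MS-1. The labels do not say that matching numbers share a rat. ENSRNOT00000042736 was at 0.128 CPM or less in all 5, and ENSRNOT00000043736 was at 5.75 to 20.9 CPM in all 5, so these 2 do not separate the numbers. The matching of numbers was noticed after the data had been seen, and no library was moved to another group because of it.

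ENSRNOT00000089564 was alike in 14 of 16 matching kidney pairs and in 86 of 94 other pairs of the same dose and time, so its matching pairs were no more often alike than the others (87.5% against 91.49%).

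Kidney MS-37, of the low dose at 24 h, was the highest kidney for several members that were otherwise low in kidney. It was at 62.1 CPM for ENSRNOT00000052369, where the other 29 kidneys were at 1.54 CPM or less. It was at 8.46 CPM for ENSRNOT00000026290 (others up to 1.47 CPM), 11.9 CPM for ENSRNOT00000015801 (others up to 2.85 CPM), and 6.88 CPM for ENSRNOT00000042643 (others up to 0.759 CPM). These 4 were picked after their values had been seen. What the library shares with liver was not tested.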
